A study of Mus musculus with 5 samples.

Results

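Single-cell RNA-seq of freshly isolated mouse submandibular gland gave 13547 cell barcodes, and 11597 of them (85.6%, 95% Clopper-Pearson interval 85.0 to 86.2) had fewer than 200 detected genes. These low-complexity barcodes are described here against the 1950 tissue barcodes with at least 200 genes. They were chosen by the number of genes with at least 1 unique molecular identifier (UMI), and every value that follows from that choice, gene number and transcript diversity included, is a description and not a finding. The series held 72788 barcodes in 5 libraries. The tissue came from untreated C57BL/6 mice aged 8 to 12 weeks, which the study's methods describe as female, and the labels give 10 minutes in 0.05% trypsin for tissue and organoids alike, while the study's methods describe collagenase and hyaluronidase for digesting the gland before culture. A sort collected 45000 cells that excluded propidium iodide, a dye that enters dead cells, and these were loaded for droplet 3′ sequencing. The other 4 libraries were organoids grown in gel from glands of the same strain, namely untreated 7-day organoids, 7-day organoids given 7 Gy of photons or of protons on day 5, and untreated 11-day organoids, which came from other animals and another run. Each group was 1 library, the number of animals behind the tissue library was not given in the sources used here, and no difference was tested.

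The submandibular gland makes saliva. Its acinar cells produce mucins, secretoglobins and other secreted proteins in large amounts, and its ducts produce kallikreins and growth factors, so a few transcripts make up much of the gland's messenger RNA. In droplet sequencing each barcode labels the RNA of 1 droplet, and that RNA comes from a captured cell, from free RNA of broken cells in the suspension, or from both. Ribosomal RNA is not a target of the method, but some annotated gene models overlap ribosomal RNA repeats and take up reads from them.

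Low-complexity barcodes had a median of 908 UMIs (lowest 500, highest 4299) in a median of 81 genes (36 to 199). Barcodes with at least 200 genes had medians of 2528.5 UMIs and 295.5 genes. After every barcode was thinned to 500 UMIs, medians of 53 and 85 genes were left. Low-complexity barcodes held 57.7% of the tissue library's 19792416 UMIs, so their pooled values rest on 11411201 UMIs and the others' on 8381215. Barcodes just inside and just outside the threshold were close. The 182 barcodes with 190 to 199 genes had a median of 1859 UMIs, a Mucl2 share of 55.7% and a share of 73.7% for all secretory products, and the 154 barcodes with 200 to 209 genes had 2012 UMIs, 57.1% and 75.9%. None of the 59241 organoid barcodes had fewer than 200 genes, which allows a share of up to 0.00506%, and the fewest there were 218.

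Mucl2, a mucin-like secreted protein, was the main transcript of the low-complexity barcodes. It was found in all 11597 and took 56.1% of their pooled UMIs (95% interval 56.1 to 56.2), and it was the most abundant transcript in 11572 of them (99.8%). The gene lies at chr15:103926121-103929578 on the minus strand of GRCm39. In single barcodes its share had a median of 58.1%, with 45.9% at the 5th and 62.9% at the 95th percentile, so the bulk of the barcodes fell in a narrow range. In the 1950 other barcodes the median was 55.1% and the same percentiles were 10.6% and 65.2%. Their upper ends were alike, and the low end reached much farther down in barcodes with more genes. Of the 25 low-complexity barcodes led by another gene, Hbb-bs, a beta globin of red blood cells, led 14 and Gm42418 led 8. The mitochondrial genes mt-Co1, mt-Co3 and mt-Cytb led 1 each.

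**Figure D1:**
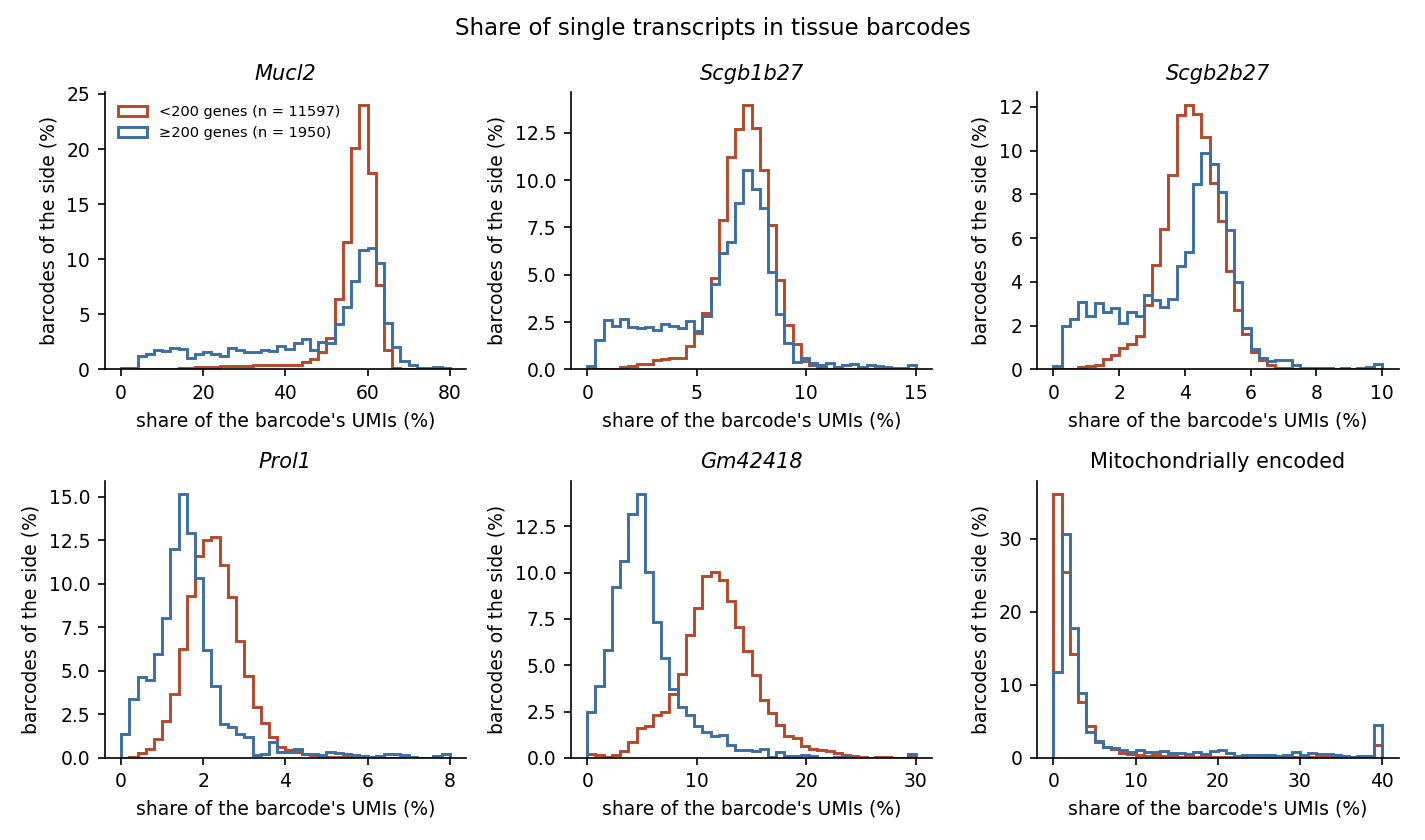
Share of each barcode's UMIs (x axis, percent) taken by Mucl2, Scgb1b27, Scgb2b27, Prol1, Gm42418 and the mitochondrially encoded genes together, against the percent of barcodes of a side (y axis), for tissue barcodes under 200 genes (red) and with at least 200 genes (blue). Values past the right end are counted in the last bin. Mucl2 formed 1 narrow peak near 58% under 200 genes, while the other barcodes trailed down to under 20%. The Gm42418 peaks lay near 12% and near 5%.

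Other secreted proteins followed in order of share. Scgb1b27, a secretoglobin, which are small secreted proteins that pair into dimers (chr7:33720908-33722306), held 7.09% of the pooled UMIs, with a median of 7.24% per barcode and 5.04% to 8.95% between the 5th and 95th percentiles. Scgb2b27 (chr7:33711346-33713367), whose gene neighbours it, held 4.17%. Prol1, a proline-rich salivary mucin (chr5:88465171-88476673), held 2.23%, with a median of 2.24% and percentiles of 1.28% and 3.42%. Scgb2b26 held 1.76%, the secreted carbonic anhydrase Car6 held 1.66% and the prolactin-induced protein Pip held 0.974%. All of these were seen in at least 99.9% of low-complexity barcodes. Smgc, submandibular gland protein C, a mucin-like product, held 0.384%, and the whey-acidic-protein family member Wfdc12 held 0.231%.

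Together, 21 detected genes of a list of 25 secretory products held 74.7% of the UMIs under 200 genes and 65.7% in the other barcodes. The medians of single barcodes were closer, at 77.4% and 74.4%. Amylase Amy1 was near the limit of detection, with 3 UMIs under 200 genes and 9 in the other barcodes. A single gene was enough for 50% of the pooled low-complexity UMIs, 4 genes for 75% and 17 for 90%. In barcodes with at least 200 genes 2, 16 and 670 genes were needed. The top 10 genes held 86.9% against 71.0%. The long tail still reached 13188 genes with at least 1 UMI under 200 genes, against 15258 in the others.

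Scgb2b26 and Scgb2b27 belong to 1 gene family, and reads of close relatives can be split between them in counting. The first 120 coding bases of each, read from GENCODE vM39 transcripts of GRCm39, are shown to let their likeness be seen, with the 24 positions that differ in capitals.
Scgb2b26: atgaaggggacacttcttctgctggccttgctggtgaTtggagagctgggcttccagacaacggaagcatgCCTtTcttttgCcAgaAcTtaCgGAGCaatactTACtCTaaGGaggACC
Scgb2b27: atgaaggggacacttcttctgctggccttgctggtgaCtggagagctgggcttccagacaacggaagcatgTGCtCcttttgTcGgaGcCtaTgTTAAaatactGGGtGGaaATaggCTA
Over the whole coding sequence of 336 bases the 2 genes were 72.6% identical.

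The second transcript of these barcodes was Gm42418, a gene model that overlaps ribosomal RNA repeats, with 11.2% of pooled UMIs. Its median share was 11.8%, with 5.89% at the 5th and 18.0% at the 95th percentile, and 1 barcode reached 45.5%. In the other tissue barcodes the pooled share was 3.47% and the median 4.73%. AY036118, a second model of this kind, held 0.392% against 0.104%. Among low-complexity barcodes the number of Gm42418 UMIs per barcode changed little with the number of genes detected, and it was higher in barcodes with the most genes. Its median was 91 UMIs in the 1123 barcodes under 60 genes, 101 at 60 to 79 genes, 112 at 80 to 99, 114 at 100 to 149 and 109 at 150 to 199. It was 113 at 200 to 299 genes and 162.5 in the 80 barcodes with at least 2000. Mucl2 rose over the low-complexity bins from a median of 324 to 914.5 UMIs, and reached 1231.5 at 200 to 299 genes. The share of Gm42418 therefore fell from 15.5% under 60 genes to 7.25% at 150 to 199 and 0.802% at 2000 or more.

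**Figure D2:**
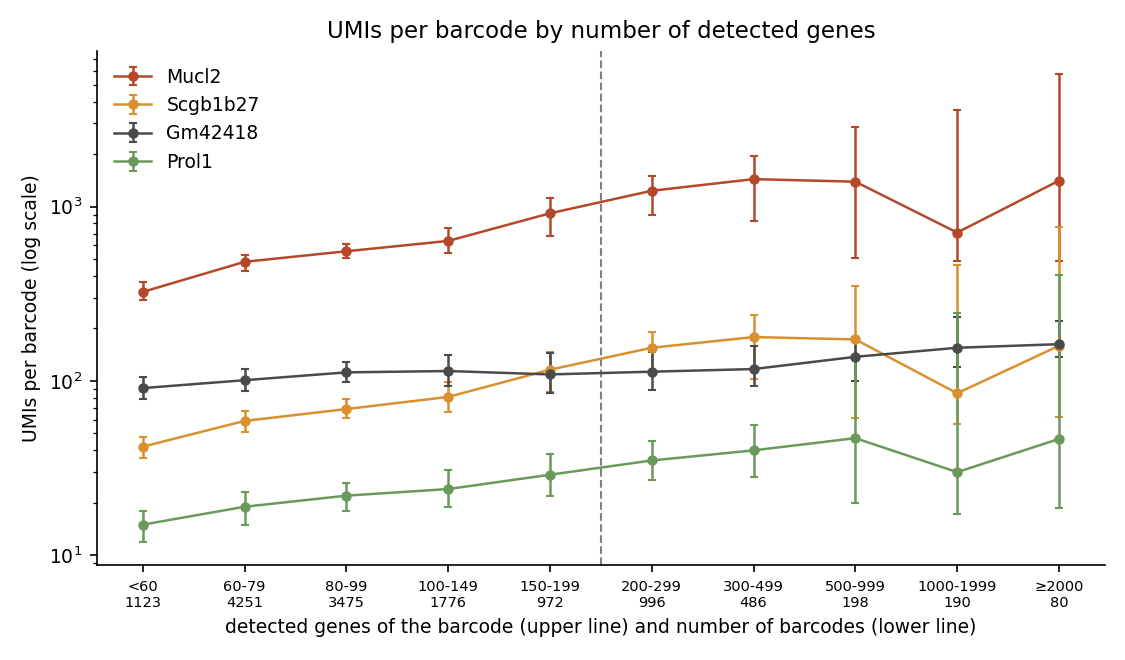
UMIs per tissue barcode of Mucl2, Scgb1b27, Gm42418 and Prol1 (y axis, log scale) by the number of detected genes (x axis, with the number of barcodes in each bin). Points are medians, bars run from the 25th to the 75th percentile and the dashed line is the threshold of 200 genes. Mucl2, Scgb1b27 and Prol1 rose across the low-complexity bins, while Gm42418 stayed between 91 and 114.

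How far shares spread from barcode to barcode was measured as the observed standard deviation (SD) divided by the SD that random sampling at each barcode's own UMI number would give. A value of 1 means no spread beyond counting. Over 11597 low-complexity barcodes the ratio was 1.10 for Pip, 1.22 for Scgb2b26 and for Car6, 1.31 for Scgb2b27, 1.37 for Prol1 and 1.44 for Scgb1b27. It was 1.46 for Smgc, and higher for the rare Dcpp1 (2.67), Dcpp2 (2.31) and Dcpp3 (2.82). The 6 abundant secretory products listed first thus varied by less than 1.5 times the counting error. The ratio was 4.02 for Mucl2 (SD 6.68 percentage points against 1.66 from sampling) and 3.42 for Gm42418. For the same relative spread the ratio rises with a gene's share, so it does not rank genes by how much they vary. The SD was 0.361 points at a pooled share of 0.974% for Pip, and 6.68 points at 56.1% for Mucl2. Of the 24 genes with a share of at least 0.1%, 10 had a ratio under 1.5 and 11 had a ratio over 3, and Hbb-bs was highest at 10.1.

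The Mucl2 share moved against the mitochondrial share. Low-complexity barcodes had a median mitochondrial share of 1.46%, but 1407 of them (12.1%) exceeded 5% and 464 (4.00%) exceeded 20%, with a highest value of 86.3%. In the 464, the pooled Mucl2 share was 30.6%. The ratios of mt-Co3 and mt-Cytb over all barcodes were 4.30 and 4.49. Among the 10190 barcodes with at most 5%, the Mucl2 ratio was 2.19 and the Gm42418 ratio 3.33. Across barcodes, which share 1 library and whose shares sum to 100%, Pearson's r of the Mucl2 and mitochondrial shares was -0.84 (n = 11597) and -0.20 among the 10190. The r of the Gm42418 share with total UMIs was -0.50, and with the AY036118 share 0.50.

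**Figure D3:**
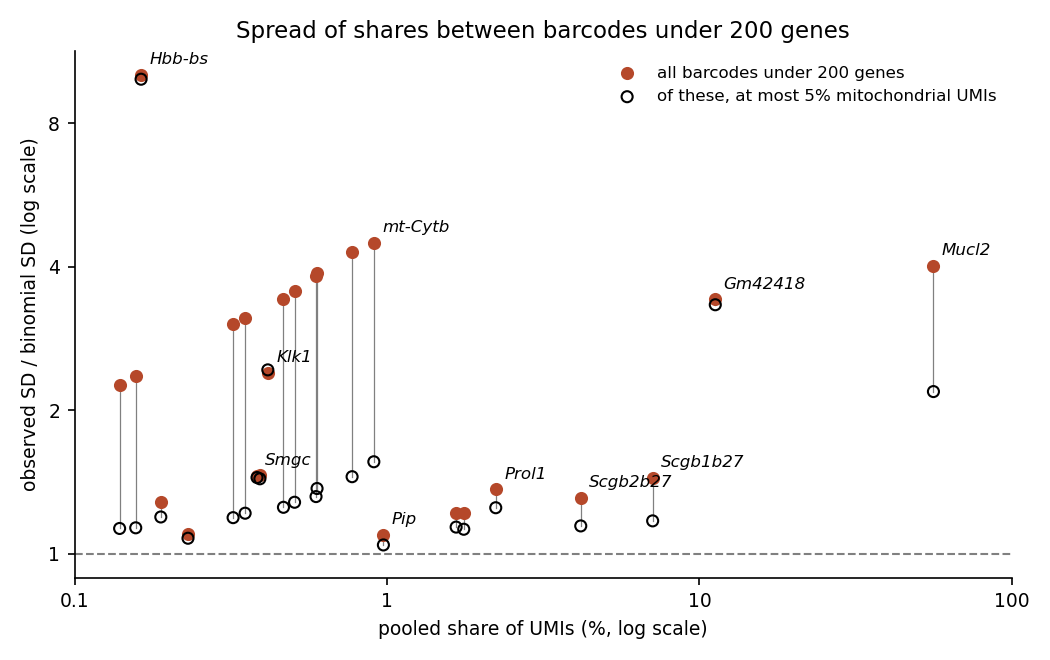
Ratio of observed to binomial SD of the per-barcode share (y axis, log scale) against the pooled share (x axis, percent, log scale) for 24 genes in barcodes under 200 genes. Red points are all 11597 barcodes and open points are the 10190 with at most 5% mitochondrial UMIs. The dashed line marks a spread of counting error alone. Pip and Scgb2b27 lay close to it, mitochondrial genes lay nearer to it among the 10190, which were chosen on that share, and Gm42418, Klk1 and Hbb-bs kept a wider spread.

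Among the secretory products themselves, proportions of the abundant members varied by less than 1.5 times the counting error, and those of the Dcpp genes by more. Counting only secretory UMIs, Mucl2 was 75.1% of them under 200 genes, with 71.7% at the 5th and 78.3% at the 95th percentile and a spread ratio of 1.25. The ratio was 1.08 for both Scgb1b27 (9.48%) and Scgb2b27 (5.58%), 1.04 for Pip (1.30%), 1.37 for Prol1 (2.98%) and 1.42 for Smgc (0.513%). It was 2.25 to 2.76 for the 3 Dcpp genes, which held 0.0217% to 0.0401% each. In barcodes with at least 200 genes the ratios were wider, at 3.89 for Mucl2, 3.08 for Prol1 and 16.7 for Smgc. Those barcodes are deeper, so the same spread in percent gives a larger ratio there, but the SD of Mucl2 within secretory UMIs was also larger in itself (4.99 against 2.10 percentage points).

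Pooled levels were compared gene by gene as the log2 ratio of UMIs of a gene scaled to a common total (CPM), low-complexity over the other tissue barcodes, with a pseudocount of 1 CPM. Only genes with at least 200 UMIs over both sides and 20 CPM in the higher side were compared. Of 1974 such genes, 5 (0.253%) were at least 2-fold higher in low-complexity barcodes and 1508 (76.4%) were at least 2-fold lower, and the median ratio of all 1974 was -1.33. Because the threshold on detected genes and the fill by a few transcripts both push other genes down, this split follows from how the barcodes were chosen, and a gene is best read against that median. With the secretory products left out of both totals, 1069 of 2443 genes (43.8%) were at least 2-fold lower, 4 were higher and the median was -0.91, so the size of the ratios depends on this scaling. Of the 1974, 1298 genes reached 20 CPM only in barcodes with at least 200 genes and could not have come out higher under 200 genes. Counts of lower genes in a list are given as a description for this reason. The 5 higher genes were AY036118 (1.92), Gm42418 (1.70), Gm15564 (1.35), Bpifa2 (1.30) and Lars2 (1.15). Gm15564 is a gene model of unassigned function. Bpifa2 is a secreted salivary protein that binds lipids, and it reached 20 CPM only under 200 genes (37.3 against 14.6 CPM), so it could not have come out lower. Lars2, annotated as a mitochondrial leucyl-tRNA synthetase, had 1887 CPM against 849 CPM. It was the second most abundant gene once the secretory, mitochondrial and ribosomal RNA-like genes were set aside. Where in the gene its reads lay was not examined.

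**Figure D4:**
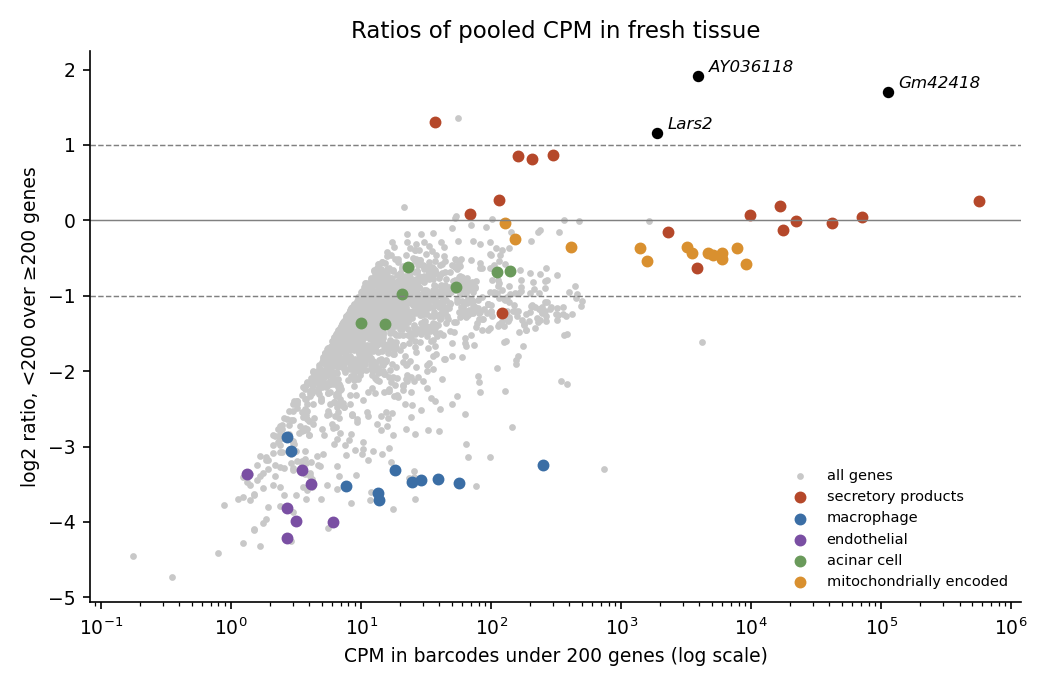
Log2 ratio of pooled CPM in tissue barcodes under 200 genes over those with at least 200 genes (y axis) against the CPM under 200 genes (x axis, log scale) for 1974 genes (grey), with gene lists in colour. Dashed lines mark 2-fold. Secretory products lay around 0, from -1.23 to 1.30, mitochondrially encoded genes just under 0 and acinar cell genes near the mass of all genes. Macrophage and endothelial genes lay between -2.87 and -4.21.

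Secretory products as a list stood at the top of this distribution. Of the 16 that could be compared, 10 had ratios over 0 and 6 under 0, with a median of 0.08. Of all 1974 genes, 19 had ratios over 0. The 2 secretory products past 2-fold were Bpifa2, whose direction the minimum fixed, and Wfdc18 (-1.23), another whey-acidic-protein family member. The pooled levels of the main transcripts were close. Mucl2 had a log2 ratio of 0.25, Scgb1b27 of 0.04, Scgb2b27 of -0.03 and Prol1 of -0.01. The median Prol1 share per barcode was higher under 200 genes, at 2.24% against 1.54%. Smgc had a pooled ratio of -0.63, but its median share per barcode ran the other way, at 0.351% under 200 genes and 0.165% in the others, where 13 barcodes had over 5% Smgc and the highest 49.8%. The demilune and parotid proteins Dcpp1, Dcpp2 and Dcpp3 had ratios of 0.81, 0.86 and 0.87. Summed, they had a ratio of 0.85, which was 1.43 when the 1 barcode with the most Dcpp UMIs was left out of the other side, a check added after the data were seen. Mucl1, a relative of Mucl2, had 0.28.

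Dcpp transcripts were gathered in few barcodes on both sides. A group of 341 barcodes (2.94%) with at least 5 Dcpp UMIs held 56.6% of all Dcpp UMIs, and the highest barcode had 270. Another 8724 barcodes had none. Bpifa2 was found in 47.8% of the 341 (95% interval 42.4 to 53.2) and in 0.699% of the 8724 (0.535 to 0.897). The limit of 5 UMIs was set after the values were seen. The 341 were deeper, with a median of 1281 UMIs against 891, and their Mucl2 share was 58.6% against 55.9%. Of the 1950 other barcodes, 68 (3.49%) had at least 5 Dcpp UMIs and held 56.4% of the Dcpp UMIs there, with 1030 in the highest barcode.

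The 3 Dcpp genes could share reads, and in the annotation Dcpp1 (chr17:24099850-24101827) lies inside the span given for Dcpp2 (chr17:24099850-24119762), with Dcpp3 at chr17:24136432-24138415. Their first 120 coding bases are shown for this reason, with the 4 positions at which the 3 genes differ in capitals.
Dcpp1: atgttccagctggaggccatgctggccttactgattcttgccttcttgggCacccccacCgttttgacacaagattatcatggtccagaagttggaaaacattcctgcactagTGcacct
Dcpp2: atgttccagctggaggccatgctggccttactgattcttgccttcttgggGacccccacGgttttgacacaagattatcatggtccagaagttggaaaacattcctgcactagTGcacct
Dcpp3: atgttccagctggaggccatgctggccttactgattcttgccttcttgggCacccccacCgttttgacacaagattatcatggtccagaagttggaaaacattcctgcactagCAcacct
Their coding sequences of 510 to 513 bases were 93.2% to 95.3% identical, so the values of single Dcpp genes are uncertain and the 3 were counted together above.

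Genes of the acinar cell that are not secreted were scarce. Aqp5, the water channel of acinar cells, was found in 10.1% of low-complexity barcodes (111 CPM) and in 31.0% of the others (179 CPM). Slc12a2, the chloride importer of these cells, was found in 12.3% and 27.5%. The transcription factor Bhlha15, which builds up the secretory apparatus, was found in 1.95% and 10.6%. These rates compare barcodes of unequal depth. At 500 UMIs per barcode, any gene of the acinar list was found in 17.6% of low-complexity and 20.9% of other barcodes, against 30.2% and 61.2% before thinning. Of 7 acinar cell genes compared, none was higher and 2 were at least 2-fold lower, with a median ratio of -0.89, beside the 76.4% and -1.33 of all genes. Those 2, Clcn3 and Etv1, reached 20 CPM only in the other barcodes, so the minimum fixed their direction. For 19 genes of the secretory pathway, the machinery that carries proteins into and through the endoplasmic reticulum, the median was -0.81 with 8 at least 2-fold lower. Of the 19, 4 reached 20 CPM only in the other barcodes. The signal peptidase subunit Sec11c (-0.39) and the translocon subunit Sec61b (-0.37) were least lowered, and the chaperone Hspa5 (-1.22) was among the most. With secretory products left out of the totals, the medians were -0.46 for acinar and -0.39 for secretory pathway genes, with none past 2-fold where 43.8% of all genes were lower, and both lay above the median of all genes under either scaling.

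Kallikreins and growth factors of the duct list were 0.525% of low-complexity UMIs and 1.502% of the others. Klk1, the tissue kallikrein, held 0.415% and 1.27%, with a log2 ratio of -1.62, and was found in 92.3% of low-complexity barcodes at a median of 3 UMIs. Its median share per barcode differed less than the pooled share, at 0.322% and 0.493%, and 109 of the other barcodes had over 5% Klk1 against 19 of the low-complexity ones. Of 12 genes of the list compared, 5 were at least 2-fold lower, also a smaller share than among all genes, and the median was -0.93. With secretory products left out of the totals, 1 of 13 was lower, where 43.8% of all genes were, and the median was -0.47. Klk1b26 (-1.07), a kallikrein-family protease, followed Klk1 in level, and the growth factor Egf had -0.97. Egf was 1 of 3 genes of the list that reached 20 CPM only in the other barcodes. The Klk1b genes are close relatives, and counts may be split among them. Of other duct cell genes, all 7 compared were at least 2-fold lower, where 76.4% of all genes were. Their median of -1.40 was close to that of all genes, and 3 of the 7 reached 20 CPM only in the other barcodes. In the other scaling 3 of 8 were lower, where 43.8% of all genes were, with a median of -0.94. The 7 included the keratins Krt18 (-1.40) and Krt7 (-2.22) and the tight junction protein Cldn4 (-2.41). Krt7 and Cldn4 were 2 of the 3 whose direction the minimum fixed.

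Of the lists compared, those of neutrophil, endothelial and macrophage genes had the lowest medians. No gene of the T and NK cell or B and plasma cell lists passed the minimums. All 11 macrophage genes compared were at least 2-fold lower, where 76.4% of all genes were, and 6 of them reached 20 CPM only in the other barcodes. Their median ratio was -3.45, and -3.04 with secretory products left out of the totals. Among them were Cd74, the invariant chain of antigen presentation (250 against 2388 CPM), and the complement subunit C1qa (24.6 against 284 CPM). All 7 endothelial genes compared reached 20 CPM only in the other barcodes, so a lower level was fixed by that minimum. Their median was -3.81, and -3.68 in the other scaling, with for example Plvap, a protein of vessel fenestrae, with 6.13 against 114 CPM. The neutrophil genes S100a8 and S100a9 had 4 and 9 UMIs in all low-complexity barcodes and 293 and 312 in the others, but those 293 and 312 UMIs lay in only 4 and 9 barcodes. Retnlg, also of neutrophils, had 2 and 207, a log2 ratio without pseudocount of -7.14 with a counting interval of -10.19 to -5.27, and its 207 UMIs lay in 5 barcodes. A few barcodes thus carry the contrast of these 3 neutrophil genes. The other genes among the 10 lowest were Sparcl1, Vim, Plpp3, Flt1, Cavin2, Msn and Srgn, at -4.32 to -4.09. All 10 reached 20 CPM only in the barcodes with at least 200 genes. They include the intermediate filament vimentin (Vim) and the VEGF receptor Flt1. Globins did not follow, with Hbb-bs at -0.01 and a median of -0.01 over 4 erythroid genes, which became 0.43 over 5 genes with secretory products left out of the totals. That equal pooled level came from few barcodes. Hbb-bs was found in 14.3% of low-complexity and 41.9% of other barcodes, and 23 low-complexity barcodes (0.198%) had over 5% erythroid UMIs, with a median of 57.0%.

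Most nuclear transcripts compared, and all stress transcripts compared, were also low. Malat1, a long RNA kept in the nucleus, had 739 CPM under 200 genes and 7258 CPM in the others (log2 ratio -3.29) and was found in 42.1% and 62.2% of barcodes. The contrast lay in barcodes with many genes, since its share was 0.0815% at 150 to 199 genes, 0.103% at 200 to 299 and 1.38% at 1000 to 1999. Neat1, the scaffold RNA of paraspeckles, had -3.21. Of 5 genes of the nuclear list compared, 4 were at least 2-fold lower, where 76.4% of all genes were. Gm42418 belongs to that list too and went the other way, at 1.70. Of the 5, 3 reached 20 CPM only in the other barcodes, Neat1 among them (17.0 against 166 CPM). All 15 immediate early and heat shock genes, which respond to dissociation, were at least 2-fold lower, where 76.4% of all genes were. Their median was -2.80, and 5 of them reached 20 CPM only in the other barcodes. With secretory products left out of the totals all 15 were still lower (median -2.43), where 43.8% of all genes were. Fos had -3.14 and Hspa1a -3.42. Mitochondrially encoded genes were less reduced, with none of 13 past 2-fold and a median of -0.43, and their pooled share was 4.88% against 6.70%. With secretory products left out of the totals their median was 0.01. In that scaling 9 of 13 had ratios over 0, beside 80 of all 2443 genes. Of 76 ribosomal protein genes compared, 59 were at least 2-fold lower, close to the 76.4% of all genes, and their median of -1.18 lay above that of all genes. In the other scaling 5 of 79 were lower, where 43.8% of all genes were, with a median of -0.76. Housekeeping genes were at least 2-fold lower in 10 of 10, where 76.4% of all genes were, with ratios from Tpt1 (-1.03) to B2m (-3.44). In the other scaling 8 of 10 housekeeping genes were lower, beside 43.8% of all genes.

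Part of this follows from the large share of the leading transcripts, so the remaining UMIs were also looked at by themselves. With secretory, mitochondrial and both ribosomal RNA-like genes left out, a median of 72 UMIs remained per low-complexity barcode, against 377 in the others, or 8.74% and 24.0% of pooled UMIs. Within this remainder acinar cell genes took 0.442% in low-complexity barcodes and 0.282% in the others, and secretory pathway genes 1.29% and 0.791%. Ribosomal protein genes took 17.3% and 14.2%. Macrophage genes took 0.526% and 2.00%, immediate early and heat shock genes 0.521% and 1.39%, and Malat1 0.846% and 3.02%. Klk1 was close, at 4.75% and 5.31%.

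To place the low-complexity barcodes among cell types, the 1418 other tissue barcodes with at most 5% mitochondrial UMIs were clustered, and 9 clusters were named from marker lists where these allowed it. Secretory products were 84.6% of UMIs in the acinar-like cluster (123 barcodes), 50.1% in the kallikrein duct-like cluster (109), and 15.8% in a macrophage-like cluster (49). The 10 deepest acinar-like barcodes held 52.8% of that cluster's UMIs, and the median share of its barcodes was 76.2%. Secretory shares were 74.2% (88) and 25.1% (66) in 2 endothelial-like clusters, of which the first carried few endothelial UMIs, a median of 2 per barcode against 37.5 in the second. Clusters 2 and 3 met no marker list and had 80.01% (327) and 83.7% (285). Of the 10 leading genes of cluster 2, 4 were Klk1b genes, at 1.85- to 2.35-fold over the other clusters. Cluster 3 was led by Dcpp3, Dcpp2, Dcpp1 and Bpifa2. Clusters 1 (328 barcodes, 73.9%) and 9 (43, 46.8%) were left unnamed as well, since 5 barcodes held 83.1% of the erythroid UMIs of the first and 67.7% of the T and NK cell UMIs of the second. The 74.7% of low-complexity barcodes lay within this range. Pearson's r of log2 CPM with the low-complexity barcodes was 0.92 in clusters 2 and 3 and 0.87 in the acinar-like cluster. It was 0.82 in cluster 1 and in the kallikrein duct-like cluster, 0.74 in the first endothelial-like cluster and 0.61 in cluster 9. It was lowest in the macrophage-like (0.50) and second endothelial-like (0.46) clusters.

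Secretory transcripts were also counted per barcode, since macrophages and endothelial cells should lack them. Low-complexity barcodes held a median of 694 secretory UMIs, with 596 and 808 as quartiles. The macrophage-like cluster held a median of 666 (594 to 1108) at a median depth of 6456 UMIs, and the second endothelial-like cluster 660 (462 to 898) at 3564.5. The first endothelial-like cluster held more, 1536.5 (1174 to 1843) at 2033.5, and so did clusters 1, 2, 3 and 9, with medians from 1363 to 2024. The kallikrein duct-like cluster held 757. The acinar-like cluster held 4330 (991.5 to 15292). Mucl2 was a median of 75.2% of secretory UMIs in low-complexity barcodes, 75.3% in macrophage-like and 74.7% in the second endothelial-like cluster, but 72.2% in acinar-like barcodes, whose quartiles ran from 65.0% to 75.1%. The median Prol1 share of secretory UMIs was 2.94%, 2.69%, 2.78% and 3.34% in the same order. It was 2.62% in the kallikrein duct-like cluster, and 2.04% to 2.34% in clusters 1, 2, 3 and 9 and the first endothelial-like cluster. The low-complexity median of 694 UMIs thus lay within the quartiles of the macrophage-like and second endothelial-like clusters and below those of the first. How far these UMIs came from a captured cell or from free RNA was not tested. Gm42418 UMIs were also alike, with a median of 106 per low-complexity barcode and 100 to 138 per barcode in the 9 clusters.

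**Figure D5:**
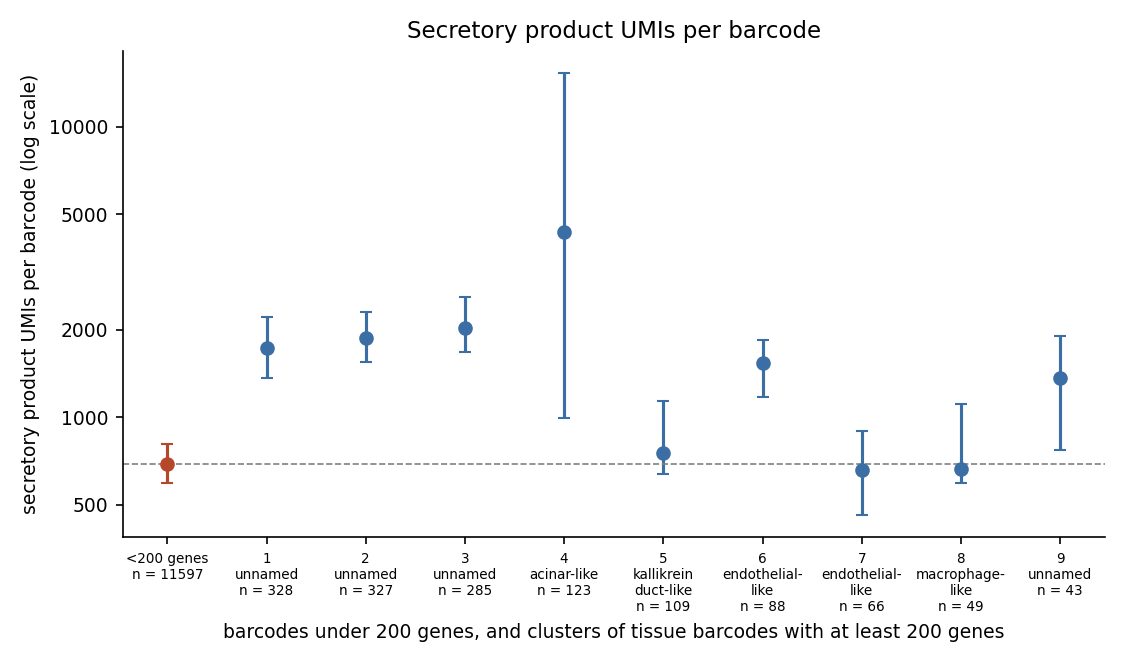
Secretory product UMIs per barcode (y axis, log scale) in barcodes under 200 genes (red) and in 9 clusters of tissue barcodes with at least 200 genes and at most 5% mitochondrial UMIs (blue). Points are medians, bars run from the 25th to the 75th percentile and the dashed line is the median of the barcodes under 200 genes. The kallikrein duct-like, second endothelial-like and macrophage-like clusters lay near that line, and the acinar-like cluster was highest and widest.

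In the organoid libraries the leading secretory transcript was rare. Mucl2 had 7 UMIs in untreated, 153 in photon-irradiated and 27 in proton-irradiated 7-day organoids, and 0 in 11-day organoids. The last allows up to 0.0210% of that library's barcodes to carry a Mucl2 UMI. Libraries of the series used barcodes from 1 common set, and 175 low-complexity barcodes (1.51%) carried a sequence also seen in another library, against 45 of the other tissue barcodes (2.31%). Without them the secretory share was 74.8%.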

How the data were processed

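The authors deposited, for each of the 5 libraries, a matrix of whole-number counts of UMIs per gene and barcode. The study's methods exclude cells with over 5% mitochondrial UMIs and by a limit on feature counts. If that limit is read as the lower one it is worded as, every low-complexity barcode would fail it. The matrix headers name software 3.0.1 for the 7-day and tissue libraries and 7.0.0 for the 11-day library. The submitters' processing notes name Cell Ranger 5 and mm10, while the study's methods name GRCm39. The build used for counting was thus not settled, and coordinates and coding sequences are those of GENCODE vM39 (GRCm39), matched by gene ID (30144 of 31053 IDs). Every deposited barcode had at least 500 UMIs. Low-complexity barcodes were taken as deposited, with no mitochondrial limit in the main values, and doublets were not called. Counts were summed per side and scaled to CPM. Intervals are 95% Clopper-Pearson intervals for shares and exact conditional intervals for ratios, limits for a count of 0 are 3 counts of the total, and all of these cover counting error only, not variation between animals or preparations. No test was run, since no group had a replicate. Clusters came from scanpy 1.11.5 and leidenalg 0.10.2 (2000 variable genes, 30 components, 15 neighbours, resolution 0.8). A cluster was named where at least 3 markers, and at least 1 in every 3 of a list, were 2-fold higher than in the other clusters. Where several lists qualified, the name came from the list with most markers among the 10 leading genes. In the acinar-like and macrophage-like clusters no list had a marker among those 10. There the list that gave the name had the most 2-fold markers, 8 and 12. A name was dropped where 5 barcodes held over 50% of the list's UMIs in the cluster. These rules were set after the data were seen. The members and the 20 gene lists were chosen with earlier results of these data known. Genes named are the 3 markers of the barcodes, the 20 largest pooled shares, the 10 highest and 10 lowest ratios among genes passing the minimums of 200 UMIs and 20 CPM, and members of the lists. The 2-fold calls and spread ratios were tested on simulated data. Alternatives were other gene thresholds, a mitochondrial limit, thinning, other minimums and pseudocounts, and other cluster resolutions.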

Additional observations from a re-analysis of the deposited data

How the results depend on the processing

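No paired analysis was possible because each group was 1 library. Counts and shares moved with where the limit on detected genes was set, and ratios of single genes and lists were not rerun at other limits. At 150 genes there were 10625 low-complexity barcodes, with secretory shares of 75.3% below and 66.7% above the limit and a Mucl2 spread ratio of 3.54. At 300 genes there were 12593, with 74.4%, 63.3%, a ratio of 4.49 and 8 genes at least 2-fold higher. With at most 5% mitochondrial UMIs, 10190 remained, the shares were 77.9% and 73.4% and the ratio was 2.19. Leaving out barcodes over 5% erythroid UMIs as well, an alternative added after the data were seen, gave 78.1%, 73.6% and 1.99. Thinning every barcode to 500 UMIs gave 75.5%, 63.1% and 3.09, and a mean over barcodes gave 75.5% and 63.2%. Without barcodes shared with other libraries the shares were 74.8% and 65.8%. The count of genes at least 2-fold lower was 923 with a pseudocount of 10 CPM and 7201 with a minimum of 20 UMIs and no CPM minimum, where more genes are compared. With secretory products left out of the totals it was 1069 of 2443, and the list medians of mitochondrial and erythroid genes changed sign, from -0.43 to 0.01 and from -0.01 to 0.43. Against barcodes with at least 500 genes, 12 genes were at least 2-fold higher. Cluster resolutions of 0.4 and 1.2 gave 7 and 13 clusters, and the lowest secretory share stayed at 15.8%. Depth limits genes seen in few barcodes, since a low-complexity barcode held a median of 72 UMIs outside the leading groups.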

Other observations

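A small number of low-complexity barcodes carried transcripts of other kinds, and the limits used to count them were set after the values were seen. Over 1% macrophage UMIs were found in 50 barcodes (0.431%), with a median share of 2.49% in them, a median of 679 UMIs and 141 genes, and a secretory share of 68.7%. Over 1% Malat1 was found in 40 (0.345%), over 5% Klk1 in 19 (0.164%) with a highest share of 14.8%, and over 5% Smgc in 4. No low-complexity barcode had over 1% endothelial or over 1% B and plasma cell UMIs, where a limit of 3 counts allows up to 0.0259% of barcodes in each case, while 40 of the 1950 other barcodes passed the endothelial limit. The 23 barcodes with over 5% erythroid UMIs were deep, with a median of 2374 UMIs in 125 genes, and their secretory share was 35.4%. The 464 barcodes with over 20% mitochondrial UMIs had a median of 1600.5 UMIs and 131 genes, a secretory share of 40.8% and a share of 10.9% for both ribosomal RNA-like genes, close to the 11.6% of all low-complexity barcodes.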
